A study of Mus musculus with 8 samples.

Results

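The clustered histone genes of the mouse are the short, intronless or nearly intronless genes that carry a Hist1, Hist2, Hist3 or Hist4 name. They were taken from the gene table as every row with a gene symbol that starts with one of these names, and where a symbol had several rows the row with the largest summed count was kept. This gave 70 genes in 63 of the 48607 assembled loci of the table, where a locus is a stretch of genome that the authors' transcript assembly treated as 1 unit. All 70 clustered histone genes of the GENCODE M21 annotation of GRCm38 had a row. The genes comprised 6 of type H1, 20 of H2A, 19 of H2B, 12 of H3 and 13 of H4, with 56 in the Hist1 cluster on chromosome 13, 10 in Hist2 on chromosome 3, 3 in Hist3 on chromosome 11 and 1, Hist4h4, on chromosome 6.

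RNA was measured in whole aortas, in 8 libraries. By title, 5 libraries came from ApoE-/- mice and 3 from NPRC-/-ApoE-/- mice, whereas the study's methods give 5 aortas of each genotype for RNA sequencing. All mice lacked apolipoprotein E and ate a Western diet, for 12 weeks per the study's methods, so even the control aortas came from animals prone to atherosclerosis, the build-up of lipid-rich, inflamed plaques. NPRC, the natriuretic peptide clearance receptor encoded by Npr3, had been inactivated in every tissue by a frameshift in exon 1 on a C57BL/6 background, and the control mice were littermates. The age at tissue collection is not given in the sources used here. The genotype field of the sample records goes against the title for 4 libraries, since ApoE-/- 4 and 5 are entered as NPRC-/-ApoE-/- and NPRC-/-ApoE-/- 1 and 2 as ApoE-/-, and the comparison of the members is therefore given by title and by genotype entry. Npr3 itself did not settle the labels: its FPKM, a fragment count scaled to transcript length and library size, was 0.62 to 1.69 in the titled ApoE-/- libraries and 1.13 to 1.39 in the titled NPRC-/-ApoE-/- libraries, and a frameshift need not lower the RNA. The labels do not say which animal each library came from, so p-values measure the spread between these libraries.

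Histones H2A, H2B, H3 and H4 form the protein core around which DNA is wrapped, and H1 binds the linker DNA between cores. The clustered genes are switched on in S phase, when newly made DNA has to be packed, and their mRNAs are exceptional in that they normally end without a poly(A) tail. In place of the tail they end just after a short stem-loop that is bound by the protein SLBP, and they are degraded rapidly when DNA synthesis stops. Many of the same genes also give longer, polyadenylated transcripts, which have been described in differentiated cells that no longer divide. The libraries were made from RNA purified repeatedly on oligo(dT) beads, which hold poly(A) tails, so the values below describe histone RNA as far as it came through this selection.

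The stem-loops show where most of these mRNAs would end, and they were read from the annotated transcripts. A stem-loop, searched as GGNNNTTTNNANNNCC on the transcript strand with 6 paired bases on each side, was found in 43 of the 70 genes, 21 to 58 bases after the stop codon, in 6 different sequences. The most frequent occurred in 25 genes of types H1, H2A, H2B and H3, while H4 genes used others. One example of each is given with 5 flanking bases on each side, in GRCm38 coordinates, with the stem-loop in capitals.

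Hist1h2ad (H2A, chr13:23574890-23574915, plus strand): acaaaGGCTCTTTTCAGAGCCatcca
Hist1h3e (H3, chr13:23561898-23561923, minus strand): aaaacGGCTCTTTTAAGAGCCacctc
Hist2h2ac (H2A, chr3:96220413-96220438, minus strand): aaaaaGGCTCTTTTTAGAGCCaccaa
Hist1h4h (H4, chr13:23531453-23531478, plus strand): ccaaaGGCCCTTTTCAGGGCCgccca
Hist1h4j (H4, chr13:21735432-21735457, plus strand): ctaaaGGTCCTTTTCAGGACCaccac
Hist2h4 (H4, chr3:96262934-96262959, minus strand): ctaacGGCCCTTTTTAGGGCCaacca

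Of the 43 genes, 21 had an annotated model that ended within 100 bases after the stem-loop and 22 had a model that ran further. Another 13 models stopped at the stop codon, 11 models of other lengths held no whole stem-loop and 3 genes were pseudogenes. A poly(A) signal, AATAAA or ATTAAA in the last 50 bases of the model, was present in 17 genes, among them 11 of the 22 whose model ran past the stem-loop and 1 of the 21 whose model ended at it, Hist1h4h.

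The promoters were read from RefSeq (GRCm38.p6, 250 bases before to 50 after the start) for the 61 genes that matched an entry. The octamer ATTTGCAT, which the factor Oct-1 binds in H2B promoters, was present on either strand in 7 of 17 H2A and 6 of 16 H2B promoters and in 0 of 6 H1, 10 H3 and 12 H4 promoters, against 1.735% of all 32851 promoters. The letters CCAAT occurred in every H1, H2A, H2B and H3 promoter matched but in 3 of 12 H4 promoters (37.408% of all promoters), and TATAAA in 4 of 6, 11 of 17, 8 of 16, 4 of 10 and 8 of 12 (13.616% of all). Both strands were searched, and the numbers are of promoters with at least 1 match. H2A and H2B genes often lie head to head: 14 such pairs on opposite strands had annotated starts within 500 bases of each other, so that 1 octamer can fall within both promoters of a pair. Stretches that hold the octamer are shown on the strand of the gene for an H2B and an H2A gene described below, with the octamer or its reverse complement in capitals, and in Hist1h2bg also the letters TATAAA.

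Hist1h2bg (chr13:23571325-23571399, plus strand): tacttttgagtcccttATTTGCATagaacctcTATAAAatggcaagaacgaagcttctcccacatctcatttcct
Hist3h2a (chr11:58954550-58954629, plus strand): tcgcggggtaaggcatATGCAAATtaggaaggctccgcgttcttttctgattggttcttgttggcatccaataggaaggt

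Clustered histone RNA was detectable throughout, but it was a small part of the library. The 63 loci together took 0.0474% to 0.0934% of the counts, and libraries held 62969165 to 86693276 counts. Of these loci 10 carry several gene names, and all but that of Hist1h2bf and Hist1h2bh also hold a gene without a Hist name. The largest, the locus of Hist1h1c and Hist1h2bb (52738 counts over the 8 libraries), also holds Gm44314. The sums can therefore include RNA of other genes. Summed over the 63 loci, counts scaled to the TMM-adjusted library size (CPM) were 619, 923, 1020.0, 967 and 601 in ApoE-/- 1 to 5 and 681, 472 and 665 in NPRC-/-ApoE-/- 1 to 3. Libraries ApoE-/- 2, 3 and 4 were above all others, ApoE-/- 1 and 5 lay within the range of the titled NPRC-/-ApoE-/- libraries, and NPRC-/-ApoE-/- 2 was the lowest. The sum was 826 ± 200.3 CPM (SD, n = 5) against 606 ± 116 CPM (SD, n = 3) by title, and 743 ± 225 CPM (n = 5) against 744 ± 196 CPM (n = 3) by genotype entry. In bulk tissue, fewer cells with histone RNA and less of it per cell cannot be told apart.

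**Figure D1:**
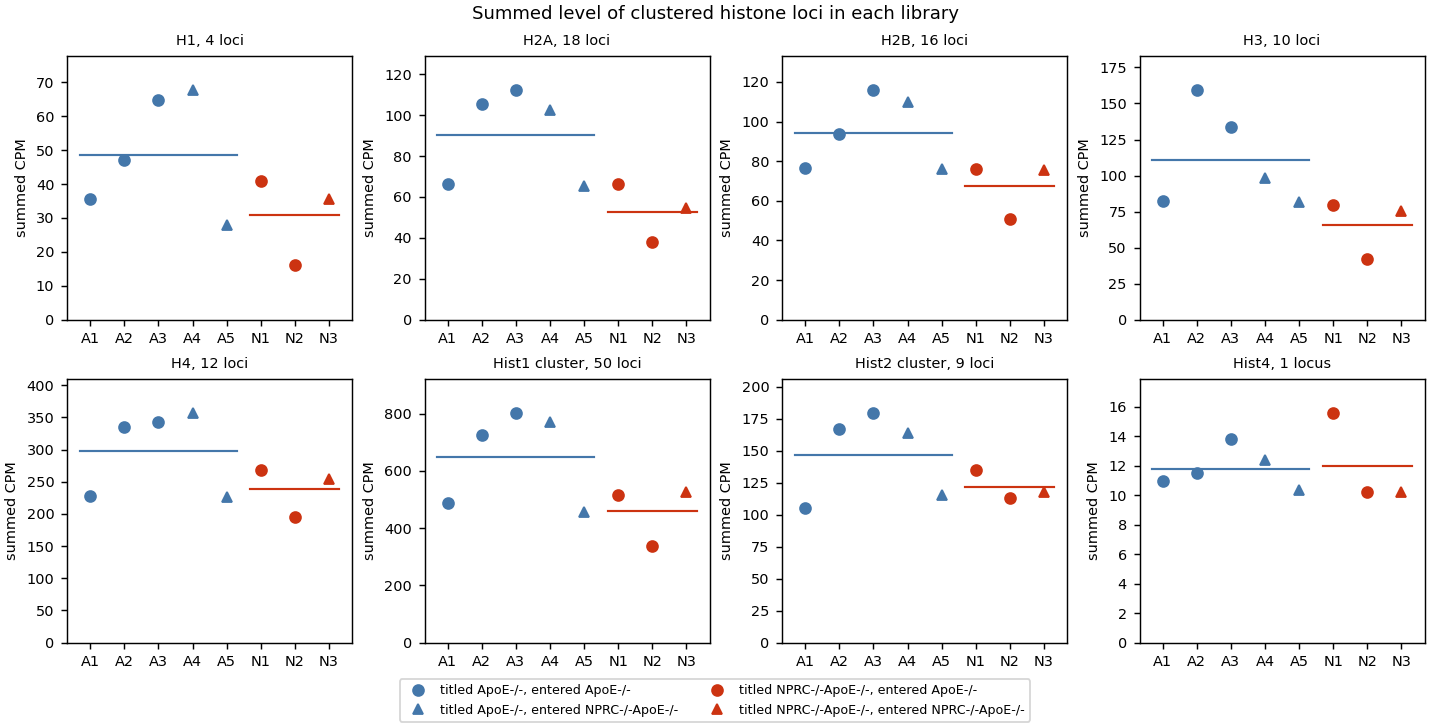
Summed CPM (y axis, from 0) of the loci of each histone type and of the Hist1, Hist2 and Hist4 clusters in the 8 libraries (x axis; A, titled ApoE-/-, N, titled NPRC-/-ApoE-/-). Circles are libraries entered as ApoE-/-, triangles those entered as NPRC-/-ApoE-/-, and lines are means by title; A2, A3 and A4 were the highest in each panel except Hist4, and N2 the lowest in the panels of types H1 to H4 and Hist1.

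Among single loci the H4 genes had the highest levels per length. Hist1h4h, which encodes H4 and whose stem-loop is shown above, had the highest mean FPKM of all members, with 79.7, 114, 95.0, 107 and 88.9 in ApoE-/- 1 to 5 and 81.4, 73.0 and 80.05 in NPRC-/-ApoE-/- 1 to 3. The groups overlapped by title, and the log2 fold change (NPRC-/-ApoE-/- minus ApoE-/-) was -0.30 (SE 0.16, edgeR, adjusted p = 0.441). Hist1h4m and Hist1h4n followed at mean FPKM of 66.6 and 32.4, but 88.1% of the 100-base stretches of Hist1h4m occur also in Hist1h4n, so reads could be split between them. Together they had 30.4, 83.2, 63.8, 82.7 and 29.4 CPM in ApoE-/- 1 to 5 and 52.5, 24.7 and 35.4 CPM in NPRC-/-ApoE-/- 1 to 3, again with ApoE-/- 2, 3 and 4 on top. The fourth H4 locus, in which the table joins Hist1h4b and Hist1h4d, had a mean of 31.3 FPKM and a log2 fold change of -0.27 (SE 0.19).

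For the other types, the leading loci were Hist1h1b (mean 11.9 FPKM), Hist1h1a (6.65) and Hist1h1d (2.67) for H1, Hist2h2ac (28.6), Hist1h2ak (14.0), Hist1h2ao (13.3) and Hist1h2ab (12.2) for H2A, Hist1h2bc (17.9), Hist1h2bg (13.6), Hist1h2bk (7.96) and Hist1h2bj (6.94) for H2B, and Hist1h3e (19.6), Hist1h3i (19.5), Hist1h3b (17.4) and Hist1h3h (11.1) for H3. The 3 loci that hold genes of 2 types were counted with no type, and among them Hist1h1c with Hist1h2bb was the highest (29.7 FPKM). The median over loci was 4.66 for H1, 2.30 for H2A, 2.41 for H2B, 9.87 for H3 and 21.7 FPKM for H4. At the lower end, the testis genes Hist1h1t, Hist1h2aa and Hist1h2ba had 0.03 to 0.42, 0.00 to 0.10 and 0.00 to 0.93 FPKM, Hist2h2bb and Hist1h2aa had 4 counts in 1 library each, and Hist2h3b had 0 counts in every library, which allows up to 3 counts per library (counting error only). For Hist2h3b, 77.1% of the 100-base stretches occur in Hist2h3c1.

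By title, 50 of the 55 loci that passed the filter on low values (at least 1 FPKM in at least 3 libraries) had a negative log2 fold change, as did 50.9% of the 20506 loci tested in all. The median was -0.72 for the 55 loci and -0.01 for all loci. No member passed an adjusted p of 0.05 in edgeR, where p-values of the quasi-likelihood fit were adjusted by the Benjamini-Hochberg method (smallest 0.255), nor did any other locus (0.0% of 20506). An unadjusted p under 0.05 was reached by 19 loci in the negative direction, against a background of 7.13% of all loci, and by 1 in the positive direction, against 6.51%. The study's own criterion, a fold above 2 or below 0.5 with an unadjusted p under 0.05, was met by 9 loci that were lower (background 2.39%) and by 0 that were higher (background 1.08%). In 10 loci every titled NPRC-/-ApoE-/- library was, in CPM, below every titled ApoE-/- library (background 3.69%), and in 1 locus it was above (background 3.72%). With DESeq2 in place of edgeR, 6 members passed an adjusted p of 0.05 (background 3.17%). Of the 55 loci, 3 passed the filter only through the titled ApoE-/- libraries (Hist1h2ag, the locus of Hist1h2ac and Hist1h2ae, and Hist3h2bb-ps), so a difference in them was favoured by the filter. All 3 are among the 19 loci with an unadjusted p under 0.05, and Hist1h2ag is among the 9 that met the criterion.

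**Figure D2:**
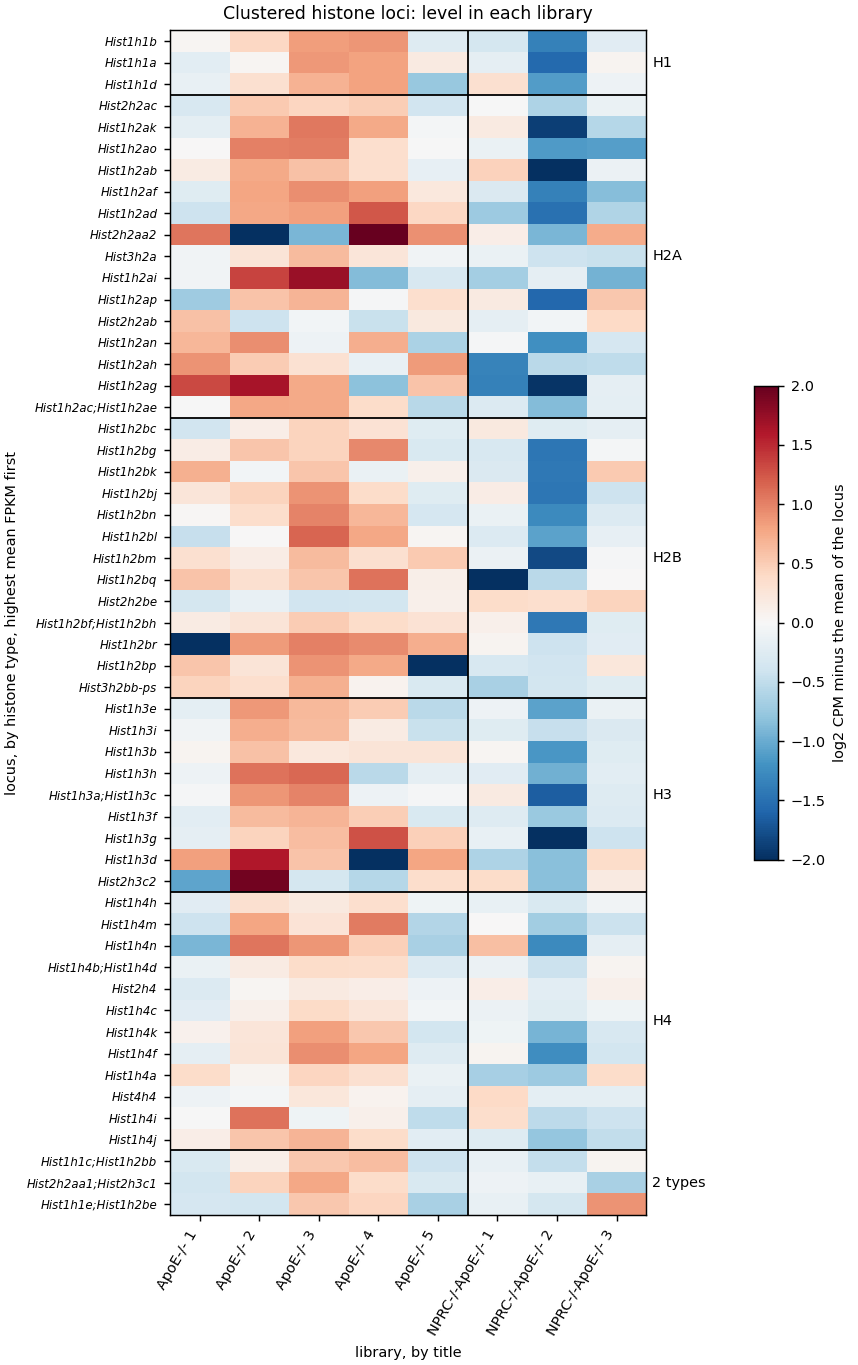
Level of each of the 55 tested loci (y axis, by histone type) in each library (x axis, by title), as log2 CPM minus the mean of the locus over the 8 libraries; red is above and blue below that mean, and the colours stop at a difference of 2. ApoE-/- 2, 3 or 4 held the highest value in 49 of the 55 loci and NPRC-/-ApoE-/- 2 the lowest in 38.

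The low values gathered in 1 library. NPRC-/-ApoE-/- 2 was the lowest of the 8 libraries in 38 of the 55 loci (69.1%), while it was the lowest in 15.2% of all tested loci. Without it, 7 of 55 members had an unadjusted p under 0.05 (12.7%, against 6.54% of all loci in that fit, in either direction), 4 met the study's criterion (7.27% against 1.88%) and the median log2 fold change was -0.48. Without ApoE-/- 2 the first count was 11 of 54 (20.4% against 10.1%), and without ApoE-/- 3 it was 12 of 54 (22.2% against 10.2%). Without NPRC-/-ApoE-/- 1 the criterion was met by 15 of 55 loci (27.3% against 7.91%).

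The high values gathered in 3 libraries, ApoE-/- 2, 3 and 4, which also stood apart in genes unrelated to histones. Of 10 skeletal muscle markers 4 passed the filter, and these summed to 1.11 to 2.25 CPM in the 3 libraries and to 27.4 to 39.5 CPM in the other 5. The 7 of 10 plasma cell markers that passed summed to 771 to 885 CPM against 145 to 267 CPM. The median of the mean FPKM was 0.60 over the 10 skeletal muscle and 2.46 over the 10 plasma cell markers. Low genes can pass the filter through the libraries where they are high, which can favour such a contrast. Without ApoE-/- 2, 3 and 4, ApoE-/- 1 and 5 stood against the 3 titled NPRC-/-ApoE-/- libraries. In that fit 36 of 52 tested member loci had a negative log2 fold change, as did 9473 of all 19276 loci. The median was -0.28 (0.01 for all loci). An unadjusted p under 0.05 in that direction was reached by 3 member loci (background 2.19%). These were Hist1h2ah, Hist1h3d and Hist1h2ad, named after their values were seen. The part of these 3 libraries in the difference by title was not tested further, and the labels give no batch.

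Among H2A loci, 14 of 15 were lower in the titled NPRC-/-ApoE-/- group (50.9% of all loci), with a median log2 fold change of -1.06. An unadjusted p under 0.05 was reached by 8 of the lower loci, against a background of 7.13%. Among these 8, Hist1h2ag and the locus of Hist1h2ac and Hist1h2ae passed the filter only through the titled ApoE-/- libraries. Hist1h2ad had the smallest p of all members, with 3.60, 8.13, 7.62, 10.4 and 6.55 FPKM in ApoE-/- 1 to 5 and 2.81, 1.61 and 2.86 in NPRC-/-ApoE-/- 1 to 3. Its groups did not overlap by title, and the log2 fold change was -1.56 (SE 0.38, adjusted p = 0.255 with edgeR and 0.00545 with DESeq2). Hist1h2af was likewise separated, with 5.26 to 10.7 against 2.31 to 4.91 FPKM and a log2 fold change of -1.35 (SE 0.35). So were Hist1h2ah (1.33 to 3.07 against 0.59 to 1.05 FPKM, -1.33, SE 0.35) and Hist1h2ao (12.3 to 24.4 against 5.10 to 10.9 FPKM, -1.26, SE 0.36). These genes encode nearly the same H2A protein and share much sequence, with 65.3% of the 100-base stretches of Hist1h2af found in Hist1h2ad and 92.7% of those of Hist1h2ao in Hist1h2ap, so the division of reads among them is uncertain. Hist1h2ao and Hist1h2ap summed had 7.5996 to 15.8 CPM in the titled ApoE-/- and 3.496 to 7.58 CPM in the titled NPRC-/-ApoE-/- libraries, ranges that nearly met.

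Further down the H2A list, Hist1h2ag had the largest negative change of all members (log2 fold change -1.96, SE 0.64, adjusted p = 0.290 with edgeR), with 0.48 to 3.19 against 0.20 to 0.79 FPKM and overlapping groups. It passed the filter on low values only through the titled ApoE-/- libraries, so this difference was favoured by the filter. Hist2h2ab, whose model stops at the stop codon, had 1.34 to 3.09 FPKM in the titled ApoE-/- and 1.74 to 2.45 in the titled NPRC-/-ApoE-/- libraries (log2 fold change 0.05, SE 0.31), and without ApoE-/- 2, 3 and 4 its sign turned (-0.33, SE 0.32). Hist2h2aa2 had 13.6 FPKM, from 720 counts, in ApoE-/- 4 and 0.00 to 2.32 elsewhere, with 0 counts in ApoE-/- 2, and every 100-base stretch of it also occurs in Hist2h2aa1. The table joins Hist2h2aa1 in 1 locus with Hist2h3c1, and that locus had 2768 to 6943 counts per library, so the division of reads between the copies could not be read from a sum.

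Among H2B loci, 12 of 13 were lower by title (50.9% of all loci), and the median log2 fold change was -0.77. An unadjusted p under 0.05 was reached by 5 of the lower loci, against a background of 7.13%. Among these 5, Hist3h2bb-ps passed the filter only through the titled ApoE-/- libraries. Hist1h2bg, whose promoter is shown above, had 14.4, 18.96, 15.8, 23.0 and 10.8 FPKM in ApoE-/- 1 to 5 and 10.1, 4.55 and 11.4 in NPRC-/-ApoE-/- 1 to 3 (log2 fold change -0.91, SE 0.36). Its groups overlapped through ApoE-/- 5 and NPRC-/-ApoE-/- 3. Hist1h2bq had a log2 fold change of -1.22 (SE 0.44) with no overlap, but it is identical to Hist1h2br in all 100-base stretches, and the pair summed to 8.61 to 18.6 CPM against 5.00 to 8.61 CPM.

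Hist2h2be was the single member with a positive change at an unadjusted p under 0.05. It encodes an H2B, lies head to head with Hist2h2ac, and its annotated model continues for 2192 bases after the stop codon and ends near a poly(A) signal. Its FPKM was 1.80, 2.06, 1.58, 1.62 and 2.51 in ApoE-/- 1 to 5 and 2.90, 2.80 and 2.85 in NPRC-/-ApoE-/- 1 to 3, so every titled NPRC-/-ApoE-/- library was above every titled ApoE-/- library. The log2 fold change was 0.61 (SE 0.16, adjusted p = 0.255 with edgeR and 0.0236 with DESeq2, 0.0236 to 0.834 over the alternatives). Without the 3 libraries low in skeletal muscle markers it was 0.49 (SE 0.20), and by genotype entry 0.10 (SE 0.26). Its neighbour Hist2h2ac, from the same region, had 22.7 to 41.3 against 18.2 to 27.8 FPKM and a log2 fold change of -0.44 (SE 0.27), and Hist1h2bc, the H2B locus with the highest FPKM, had 14.1 to 22.6 against 14.7 to 20.5 FPKM (-0.15, SE 0.21).

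**Figure D3:**
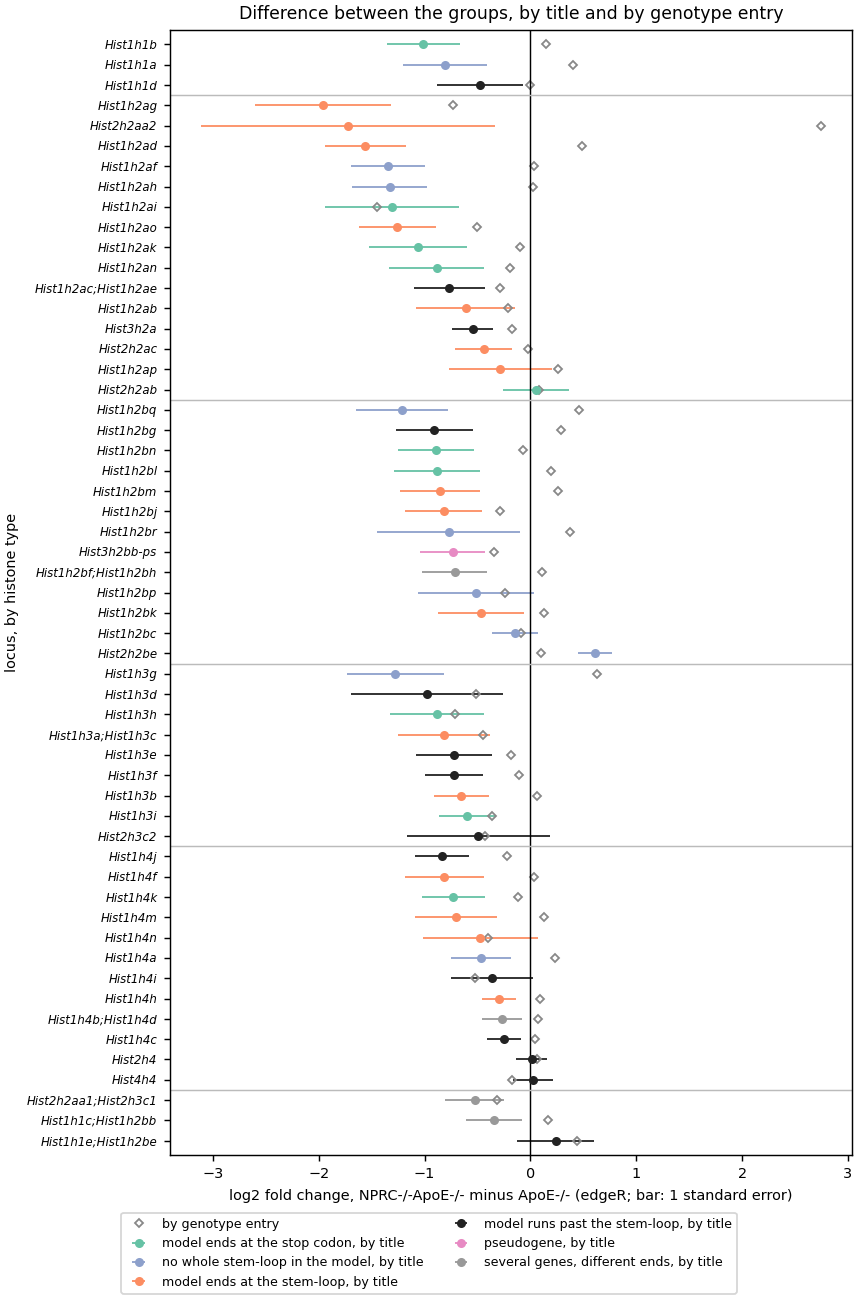
Log2 fold change (x axis, NPRC-/-ApoE-/- minus ApoE-/-, edgeR) of the 55 tested loci (y axis, by histone type). Filled points with bars of 1 SE are by title, coloured by where the annotated model ends, and open diamonds are by genotype entry. By title 50 points lie below 0, and by genotype entry 28.

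The H1, H3 and H4 loci followed the same direction by title with smaller medians than H2A, -0.81, -0.72 and -0.42. In these types 3 of 3, 9 of 9 and 10 of 12 loci were lower (50.9% of all loci). An unadjusted p under 0.05 was reached by 1, 3 and 2 of the lower loci, against a background of 7.13%. Hist1h1b, an H1 of dividing cells, had 11.7, 15.0, 18.3, 19.1 and 9.68 FPKM in ApoE-/- 1 to 5 and 8.69, 4.29 and 8.81 in NPRC-/-ApoE-/- 1 to 3, ranges that did not overlap as FPKM but overlapped as CPM. Its log2 fold change was -1.01 (SE 0.35, adjusted p = 0.309 with edgeR). Among H3 loci, Hist1h3b was separated by title, with 17.8 to 25.7 against 7.42 to 17.2 FPKM (-0.65, SE 0.26), and Hist1h3e, Hist1h3i and Hist1h3h overlapped (-0.72, -0.60 and -0.88). Hist1h4j was the H4 locus with the smallest p, with 2.68 to 4.48 against 1.71 to 2.49 FPKM and no overlap (-0.83, SE 0.25). Hist1h4h and Hist1h4c, at higher FPKM, were at -0.30 (SE 0.16) and -0.25 (SE 0.16).

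A pair of H4 genes was flat. Hist2h4, whose model runs 1311 bases past the stop codon to a poly(A) signal, had 20.6, 25.4, 25.1, 24.8 and 23.6 FPKM in ApoE-/- 1 to 5 and 26.5, 20.7 and 24.2 in NPRC-/-ApoE-/- 1 to 3. Its log2 fold change was 0.01 (SE 0.15). Hist4h4, with 2515 bases after the stop codon and a poly(A) signal, had 3.27, 3.39, 3.67, 3.35 and 3.14 FPKM in the ApoE-/- libraries and 4.5, 2.94 and 2.75 in the NPRC-/-ApoE-/- libraries (0.02, SE 0.19, a sign that turned in 7 of the alternative settings tried). In both genes ApoE-/- 2, 3 and 4 were higher than ApoE-/- 1 and 5 by far less than in Hist1h4m, and in FPKM NPRC-/-ApoE-/- 1 was the highest library, while in CPM ApoE-/- 3 was the highest for Hist2h4. Hist3h2a, an H2A gene with 1700 bases after the stop codon and a poly(A) signal that shares its locus with Trim17, had 2.49 to 3.61 against 1.72 to 2.31 FPKM and no overlap (-0.55, SE 0.19). The other Hist3 genes were low, Hist3h2ba at 0.08 to 1.37 FPKM and the pseudogene Hist3h2bb-ps at 0.74 to 1.87 FPKM.

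The loci were also divided by the length of the annotated model after the stop codon. This division was made after the values of single genes were seen, and the flat or higher genes Hist2h4, Hist4h4 and Hist2h2be fall in its longer class, so it partly restates them. Of 31 tested loci with at most 150 bases after the stop codon, 30 were lower by title (50.9% of all loci). Their median log2 fold change was -0.82, and the exception was Hist2h2ab. Among 19 tested loci with over 150 bases, 15 were lower, the median was -0.49, and the exceptions were Hist2h2be, Hist2h4, Hist4h4 and the locus of Hist1h1e and Hist1h2be (0.24, SE 0.36). The summed level of the shorter class was 221, 364, 371, 360 and 216 CPM in ApoE-/- 1 to 5 and 239, 132 and 208 CPM in NPRC-/-ApoE-/- 1 to 3. For the longer class it was 228, 323, 350.2, 327 and 222 CPM and then 256, 185 and 270.4 CPM, so by title the group means (NPRC-/-ApoE-/- over ApoE-/-) stood at a ratio of 0.629 in the shorter and 0.818 in the longer class. By genotype entry the ratios were 0.984 and 1.02. These ratios are descriptions without a test, the classes differ in level, length and shared sequence as well, and 1 model per gene may not be the RNA present in the aorta.

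**Figure D4:**
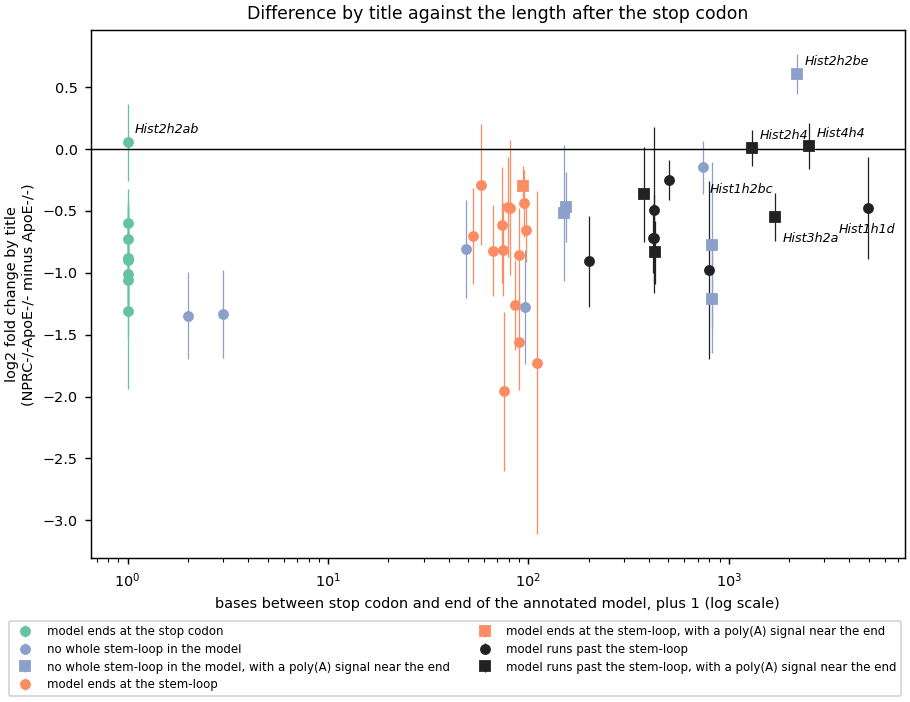
Log2 fold change by title (y axis, bars 1 SE) against the bases between stop codon and end of the annotated model (x axis, log scale, 1 added) for the 47 tested genes with a stop codon that did not share their locus with another clustered histone gene. Squares mark models with a poly(A) signal near the end. Most points lie below 0 at every length, and Hist2h2be, Hist2h4 and Hist4h4 lie at or above 0 on the right.

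By genotype entry the members had no common direction. Of the 55 loci, 28 were lower and 27 higher in the libraries entered as NPRC-/-ApoE-/-, and the median log2 fold change was -0.01. An unadjusted p under 0.05 was reached by 1 locus in each direction, against 0.697% lower and 0.614% higher of all loci, and both met the study's criterion (background 0.263% lower and 0.2% higher). They were Hist1h2ai (-1.45, SE 0.61, adjusted p = 1.00 with edgeR) and Hist2h2aa2 (2.75, SE 1.06), the latter resting on ApoE-/- 4 as described above. Hist1h2ai had 5.31 and 6.23 FPKM in ApoE-/- 2 and 3 and 0.94 to 1.96 in the other 6 libraries. No member locus was below in all 3 libraries entered as NPRC-/-ApoE-/- (background 0.566%). The entry places 2 of the 3 highest libraries, ApoE-/- 2 and 3, and the lowest, NPRC-/-ApoE-/- 2, in the same group. Hist1h2ad, for example, changed from -1.56 by title to 0.49 (SE 0.58) by entry.

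Genes related to histone supply were read from lists chosen with earlier results of these data known, as were the members. S phase genes moved in the same direction as the members by title: of 30, 19 were tested, 18 were lower, 11 of these had an unadjusted p under 0.05, and the median was -0.60. Of all loci, 50.9% were lower, and 7.13% were lower at that p. The median of the mean FPKM over the 30 S phase genes was 1.34, near the filter of 1 FPKM. Some of them could therefore pass through the libraries where they are high, which can favour a shared direction. Pcna, the sliding clamp of DNA replication, had 10.4, 13.9, 14.2, 15.5 and 9.19 FPKM in ApoE-/- 1 to 5 and 10.1, 7.25 and 7.63 in NPRC-/-ApoE-/- 1 to 3 (-0.60, SE 0.23, adjusted p = 0.328 with edgeR). Fen1, which trims Okazaki fragments, was at -1.20 (SE 0.33). Uhrf1, which takes part in the copying of DNA methylation after replication, was at -0.89 (SE 0.27), while Slc29a1 was at 0.05 (SE 0.15). Of 25 G2 and M phase genes, 8 were tested and all 8 were lower (median -0.62). An unadjusted p under 0.05 was reached by 1 of the 8, against a background of 7.13%. The median of the mean FPKM over the 25 genes was 0.59. Genes this low can pass the filter through the libraries where they are high, which can favour a shared direction among those tested. The median log2 fold change was -0.22 without NPRC-/-ApoE-/- 2 and -1.25 without NPRC-/-ApoE-/- 1. Mki67, the gene of the proliferation marker Ki-67, had 1.52, 1.68, 1.99, 2.18 and 1.09 FPKM and then 1.74, 0.31 and 0.69 FPKM, and Top2a, which untangles DNA, was at -1.02 (SE 0.39). NPRC-/-ApoE-/- 2 was the lowest library for both, as for most histone loci. Without ApoE-/- 2, 3 and 4 the medians were -0.22 for 17 S phase and -0.38 for 4 G2 and M phase genes. Of these genes 0 had an unadjusted p under 0.05, against 5.65% of all loci in that fit, in either direction.

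Genes of the machinery that ends, exports and degrades histone mRNA had smaller fold changes. Of 22 tested genes 17 were lower, against 50.9% of all loci, with a median of -0.12. An unadjusted p under 0.05 was reached by 2 of the 22, both lower, against a background of 7.13%. These were Eri1 (-0.41, SE 0.14), the exonuclease that trims the stem-loop end, and Cstf2 (-0.37, SE 0.16), a cleavage factor. Slbp had 0.91 to 1.39 FPKM in the titled ApoE-/- and 0.82 to 1.04 in the titled NPRC-/-ApoE-/- libraries (-0.24, SE 0.15), and Npat, the activator of histone gene transcription, 3.70 to 4.25 and 2.89 to 4.15 FPKM (-0.14, SE 0.15). Upf1, Ncbp1 and Srrt were at -0.01, -0.02 and 0.12. Of 17 tested histone chaperones 13 were lower, against 50.9% of all loci (median -0.10). At an unadjusted p under 0.05, 2 were lower and 1 higher, against backgrounds of 7.13% and 6.51%. Hat1 was at -0.46 (SE 0.14), Npm1 at -0.32 (SE 0.12), Rbbp4 at -0.03, Ssrp1 at -0.16 and Set at -0.10. The replication-independent variants, which are polyadenylated and not tied to S phase, had 9 of 11 genes lower (50.9% of all loci) with a median of -0.31. At an unadjusted p under 0.05 there were 0 of the 11, against backgrounds of 7.13% lower and 6.51% higher. The variants' median was 0.01 without ApoE-/- 2, 3 and 4, with 4 of 10 genes lower, and -0.19 without NPRC-/-ApoE-/- 3. Without ApoE-/- 2, 3 and 4 the chaperone median was -0.0057 and that of the processing genes -0.00020. The variants with the highest FPKM were H3f3b (26.4 to 58.9 FPKM, -0.53, SE 0.28), H3f3a (-0.73, SE 0.39) and H1f0 (-0.15, SE 0.14), and H2afz and Cenpa were at -0.78 (SE 0.40) and -0.67 (SE 0.32).

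Other RNAs that lack a poly(A) tail were read from the same libraries. Their mean FPKM ran from 0 to 25904 over 24 loci, with a median of 22.7. The 3 highest were the locus of Rn7s1 (25904), Rn7sk (16548) and the locus of Rn7s2 (9371). By title 6 of 20 tested were lower (50.9% of all loci), with a median of 0.25. An unadjusted p under 0.05 was reached by 0 of the 20, against 7.13% lower and 6.51% higher of all loci. Without NPRC-/-ApoE-/- 3 the median was -0.08, with 13 of 20 lower. Rn7sk had 19184, 8979, 16954, 10520.0 and 18021 FPKM in ApoE-/- 1 to 5 and 12076, 19850 and 26803 in NPRC-/-ApoE-/- 1 to 3 (0.45, SE 0.36), with its lowest values in ApoE-/- 2 and 4. Summed over the 20 tested RNAs, which the locus of Rn7s1 led, the level was 37830, 31297, 73657, 64800 and 32466 CPM in ApoE-/- 1 to 5 and 52093, 34752 and 52584 CPM in NPRC-/-ApoE-/- 1 to 3, so that of the 3 libraries high in histone RNA 2 were the highest and 1 the lowest. Vaultrc5 and Scarna13 were at 0.61 (SE 0.37) and 0.80 (SE 0.49). By genotype entry the medians of the 6 related lists lay between -0.18 and 0.30. An unadjusted p under 0.05 was reached by 0 of the 97 tested genes, against 0.697% lower and 0.614% higher of all loci.

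Markers of several cell types differed by title, and none of the lists held a gene with an adjusted p under 0.05 in edgeR. Smooth muscle markers, which define the main cell type of the aortic wall, were all present at a mean FPKM of 6.56 to 1249. They were higher in 10 of 10 genes, 9 with an unadjusted p under 0.05 (background 6.51%), with a median of 0.73. Macrophage markers were lower in 10 of 10, against 50.9% of all loci (5 with an unadjusted p under 0.05, background 7.13%, median -1.03). Their sum was 2187, 3022, 4625, 4695 and 1637 CPM in ApoE-/- 1 to 5 and 2427, 1165 and 1056 CPM in NPRC-/-ApoE-/- 1 to 3. Fibroblast markers were lower in 9 of 10 (median -0.64), plasma cell markers in 7 of 7 tested of 10 (-1.27), T cell markers in 3 of 3 of 10 (-0.68) and B cell markers in 2 of 2 of 10 (-1.88). The median of the mean FPKM was 0.72 over the 10 T cell and 0.55 over the 10 B cell markers. Genes this low can pass the filter through the libraries where they are high, which can favour a shared direction among those tested. The medians were -0.07 for 10 endothelial, 0.03 for 9 white fat and 0.33 for 10 brown fat markers. They were -0.36 for 4 tested of 10 neutrophil, -1.15 for 3 of 10 erythroid and 0.99 for 4 of 10 skeletal muscle markers. The median of the mean FPKM over these last lists was 0.35, 0.64 and 0.60, so the same limit holds for them. Without ApoE-/- 2, 3 and 4 the medians by title were 0.71 for smooth muscle, -0.30 for macrophage, -0.21 for fibroblast, -0.04 for plasma cell and -0.19 for skeletal muscle markers. By genotype entry they were 0.17, -0.17, -0.09, -0.32 and 0.04 in all 8 libraries. At an unadjusted p under 0.05 there were 0 genes of these lists, against 0.697% lower and 0.614% higher of all loci. The macrophage, plasma cell and fibroblast sums were highest in ApoE-/- 2, 3 and 4, as were the histone sums. The part of cell composition in the difference in histone RNA was not tested.

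**Figure D5:**
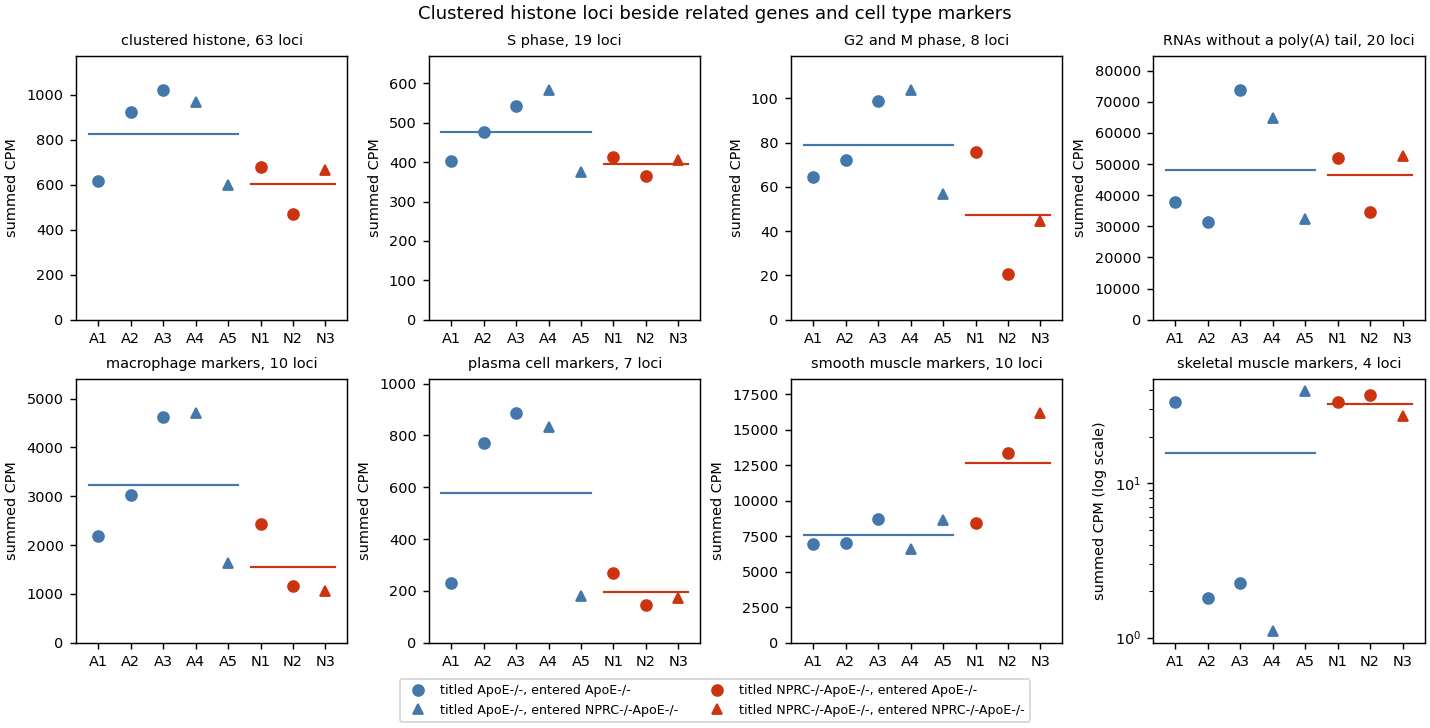
Summed CPM (y axis, from 0 except for the log axis of the skeletal muscle markers) of the 63 clustered histone loci, 3 related lists and 4 cell type marker lists in the 8 libraries (A, titled ApoE-/-, N, titled NPRC-/-ApoE-/-; circles entered as ApoE-/-, triangles as NPRC-/-ApoE-/-; lines, means by title). Histone, S phase, macrophage and plasma cell sums were highest in A2, A3 and A4, which were also the 3 libraries with skeletal muscle sums of 1.11 to 2.25 CPM.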

How the data were processed

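Poly(A) RNA from mouse aortas was purified with oligo(dT) beads and sequenced as stranded, paired-end libraries. Alignment by the authors used HISAT2 and transcript assembly used StringTie, while the submitters' processing notes name cutadapt 1.9, FastQC and GRCm38. The deposited table gives, for each assembled locus and library, a read count and an FPKM value computed by the authors, and how reads of similar genes and of each strand were counted is not given in the sources used here. Per-length levels are FPKM, and tests used the counts.

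Loci that reached 1 FPKM in 3 or more libraries were fitted with the quasi-likelihood method of edgeR 4.0.16 under R 4.3.3, with TMM factors of 0.926 to 1.065, by title and again by genotype entry. Standard errors (SE) are the log2 fold change divided by the square root of its F statistic. Alternatives used DESeq2 1.42.0, limma 3.58.1, other scalings and filters, fewer libraries and the replicate block. The fit was tested on simulated counts. Stem-loops and model ends came from GENCODE M21, and promoters from RefSeq. Named were, per histone type, the 4 loci with the highest mean FPKM, all Hist3 and Hist4 members, and the members with the smallest p-values (10 by title, 5 by entry among those under 0.05), and, per related list, the 3 highest genes and the 2 with the smallest p, besides Npr3, Slbp, Npat, Mki67 and Pcna; any others were chosen after their values were seen. The members and gene lists were chosen with earlier results of these data known. Counting intervals cover counting error only.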

Additional observations from a re-analysis of the deposited data

Results flagged for a closer look

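Hist1h2ab in NPRC-/-ApoE-/- 2 lay far from the other libraries that carry the same genotype entry. Its log2 CPM was 0.64, while the other 4 libraries entered as ApoE-/- had 2.83 to 3.42. The same library was the lowest in most member loci. In all, 76 groups of libraries were examined in this way, of which chance alone would mark about 1 in 20, or 3.8, so the single library marked here is fewer than chance gives.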

How the results depend on the processing

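By title, 0 members passed an adjusted p of 0.05 in edgeR and 6 in DESeq2, while 20 had an unadjusted p under 0.05 in either direction. That count was 2 by genotype entry, 3 without the 3 libraries low in skeletal muscle markers (a setting chosen after seeing the data) and 7 to 28 when 1 library was left out (7 without NPRC-/-ApoE-/- 2, 11 without ApoE-/- 2, 12 without ApoE-/- 3). The study's criterion was met by 9 loci, and by 2 by genotype entry, 5 with limma on log2(FPKM + 1), 2 without the 3 libraries and 4 to 15 when 1 library was left out. The median log2 fold change of -0.72 became -0.0080 by genotype entry, -0.28 without the 3 libraries and -0.91 to -0.48 when 1 library was left out. By genotype entry, 2 loci had an unadjusted p under 0.05 and 2 met the criterion. Both counts were 1 with DESeq2 and 1 with each limma setting and 0 without the 3 libraries, and with 1 library left out they were 0 to 3 and 0 to 2. The causes were not tested.

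With the replicate number of libraries 1 to 3 as a block, 17 members had an unadjusted p under 0.05, 12 met the criterion, 0 passed the adjusted p and the median was -0.79, against 22, 10, 0 and -0.76 in the same 6 libraries with no block. Of all loci, 8.91% had an unadjusted p under 0.05 and 3.72% met the criterion with the block, and 12.9% and 4.15% with no block. Deviations from the group means correlated at -0.33, -0.11 and 0.00 between same-numbered libraries and at -0.15 to 0.25 between the others. These values show no pairing by number, but with 3 libraries in each group they cannot exclude it. Hist2h2aa2 was at 1.34 with the block and 0.31 with no block, and Hist4h4 at -0.032 and -0.0086.

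The sign of the log2 fold change turned by genotype entry in 24 of 55 member loci, among them 14 of the 31 tested loci that the naming rule took, Hist1h1b (0.15), Hist1h1a (0.40), Hist1h2bg (0.28), Hist1h2bk (0.12), Hist1h3b (0.058), Hist1h4h (0.088), Hist1h4m (0.12), the locus of Hist1h4b and Hist1h4d (0.068), Hist4h4 (-0.18), Hist1h2ad (0.49), Hist1h2af (0.035), Hist1h2ah (0.021), Hist1h2bq (0.46) and Hist2h2aa2 (2.75). Without the 3 libraries it turned in 13 of 52 loci, among them 6 of 29 taken by the rule, Hist1h1d (0.24), Hist2h2ac (0.11), Hist1h2bc (0.24), Hist1h4m (0.15), Hist1h4n (0.68) and the locus of Hist1h4b and Hist1h4d (0.040). Hist4h4 was at -0.018 with limma on log2(FPKM + 0.1), -0.0097 with limma on log2(FPKM + 1), -0.015 without ApoE-/- 5 and -0.21 without NPRC-/-ApoE-/- 1. Low counts and sequence shared between members limit single loci more than their sums.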
